A study of Mus musculus with 8 samples.

Results

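The primitive streak is the site of the gastrulating embryo where epiblast cells leave the epithelium and become mesoderm or definitive endoderm, and cells that can give either are called mesendoderm. Nodal, a secreted TGF-β family ligand, binds activin receptors together with the co-receptor encoded by *Tdgf1*, and SMAD2 and SMAD3 then enter the nucleus with SMAD4 and partners such as FOXH1. Nodal and Wnt signals together induce the genes of the streak, whereas mouse embryonic stem cells (mESCs) kept in N2B27 medium, without serum or leukemia inhibitory factor, turn mostly towards neural fate.

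The genes described here are 7 transcription factors of the streak and mesendoderm, namely *T* (brachyury), *Eomes*, *Mixl1*, *Gsc*, *Mesp1*, *Evx1* and *Foxa2*. They were picked by name, and all 7 were found among the 24849 genes listed. Polyadenylated RNA was sequenced from MPI-II mESCs of strain 129S2/SvPas, wild type (WT) or lacking *Pcgf5* (*Pcgf5*-/-), with 2 samples for each genotype at day 0 and at day 6, 8 in all. PCGF5 is a subunit of a variant of Polycomb repressive complex 1. At day 0 both genotypes were grown on feeder cells with serum, leukemia inhibitory factor, the GSK3 inhibitor CHIR99021 and the MEK inhibitor PD0325901, and for the later time both were kept in N2B27. The knockout line was made with TALENs aimed at the second exon, with puromycin and G418 selection and single colonies picked, so that a difference between genotypes cannot be told apart from one between clones. Nothing in the labels says whether samples of a condition came from separate cultures. The paper's heatmap legends call the day 6 RNA-seq samples independent biological samples, without saying how they were obtained. The p-values therefore measure only the spread between these samples. The question put to the 7 genes was whether they rose in the knockout, where *Nodal* transcripts stood above WT at day 6.

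Levels are in FPKM, fragments per kilobase of transcript scaled to the size of the library, with the 95% interval that Cufflinks gives for each sample, which covers the estimation within a library and not the spread between samples. Judged from genes whose interval has the pattern of a single fragment, the deepest library held 1.30 times the depth of the shallowest. *Pcgf5* itself had 5.18 and 3.63 FPKM in WT and 1.28 and 1.84 FPKM in *Pcgf5*-/- at day 0, and 9.16 and 5.06 FPKM in WT against 0.669 and 0.457 FPKM in *Pcgf5*-/- at day 6. Both *Pcgf5*-/- samples were below both WT samples at each day, with a log2 difference of -2.33 (adjusted p = 0.00421) at day 6 and of -1.07 at day 0, which was not called (adjusted p = 0.105). These values cover the whole gene and not the targeted exon alone. Feeder fibroblast markers, 14 genes led by collagens, summed to 766 FPKM in *Pcgf5*-/- sample 2 of day 0 and to between 243 and 384 FPKM in the other day 0 samples. Primitive endoderm markers, 18 genes, summed to 567 FPKM in WT sample 1 of day 6 and to between 148 and 227 FPKM in the other day 6 samples. Neural progenitor genes, 12 in all, summed to 484 and 466 FPKM in WT and to 155 and 180 FPKM in *Pcgf5*-/- at day 6, against at most 18.7 FPKM at day 0. In such bulk samples, fewer cells of a type and less RNA per cell cannot be told apart.

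Tests used limma on log2(FPKM + 1) and covered the 13214 genes that averaged above 1 FPKM in some condition, with p-values adjusted over all of them by the Benjamini-Hochberg method and called under 0.05. Of the 7 genes, *T*, *Eomes*, *Gsc* and *Foxa2* were tested. *Mixl1*, *Mesp1* and *Evx1* stayed under the minimum in every condition and are described without a test. *Foxa2* passed only through WT at day 6 and *Gsc* only through day 0.

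In the NCBIM37 (mm9) assembly, the build of the files, the genes lie on 7 different chromosomes: *T* at chr17:8627288-8635361 on the plus strand, *Eomes* at chr9:118387330-118395250 on the plus strand, *Gsc* at chr12:105709419-105711537 on the minus strand, *Mixl1* at chr1:182623174-182627165 on the minus strand, *Mesp1* at chr7:86937127-86938674 on the minus strand, *Evx1* at chr6:52263492-52268372 on the plus strand and *Foxa2* at chr2:147868613-147872705 on the minus strand. RefSeq promoter windows of the GRCm38.p6 assembly, from 250 bases before to 50 bases after a transcript start, were found for 6 of the 7 genes, with 8 windows in all. The windows of *Eomes* and *Gsc* are shown because these 2 genes were called lower at day 6 in WT. That of *T* is shown because it holds the motif bound by T-box factors, to which T and EOMES belong. Capitals mark matches to any of the motifs searched, and each window reads along the strand of its gene.
Eomes promoter, chr9:118477939-118478238, plus strand: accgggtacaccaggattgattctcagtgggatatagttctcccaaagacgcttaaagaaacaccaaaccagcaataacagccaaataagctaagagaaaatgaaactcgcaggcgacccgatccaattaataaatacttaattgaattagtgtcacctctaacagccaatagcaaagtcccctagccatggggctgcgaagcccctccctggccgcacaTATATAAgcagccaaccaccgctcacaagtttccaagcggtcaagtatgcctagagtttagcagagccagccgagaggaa
Gsc promoter, chr12:104473187-104473486, minus strand: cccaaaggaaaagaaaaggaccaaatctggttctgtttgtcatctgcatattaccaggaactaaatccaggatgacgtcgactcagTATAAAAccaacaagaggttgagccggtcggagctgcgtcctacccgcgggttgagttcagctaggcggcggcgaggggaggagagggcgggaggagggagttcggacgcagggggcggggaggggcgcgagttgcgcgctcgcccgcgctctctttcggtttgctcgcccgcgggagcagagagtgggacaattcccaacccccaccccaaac
T promoter, chr17:8434173-8434472, plus strand: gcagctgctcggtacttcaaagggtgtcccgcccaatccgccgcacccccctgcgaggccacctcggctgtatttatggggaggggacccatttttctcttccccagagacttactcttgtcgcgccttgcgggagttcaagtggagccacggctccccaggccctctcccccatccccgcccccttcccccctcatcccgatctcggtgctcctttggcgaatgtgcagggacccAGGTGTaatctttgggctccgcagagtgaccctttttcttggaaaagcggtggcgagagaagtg

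Of 7 motifs searched on both strands, the *Eomes* and *Gsc* windows each held only the TATA box TATANAA, at -30 and at -164 from the annotated start. That motif was found in 11.3% of all 32851 windows of the same length. The *T* window held the T-box motif AGGTGT at -14, which 13.7% of all windows hold, and none of the other motifs. These others were the short SMAD motif GTCTG, in 49.6% of all windows, the SMAD palindrome GTCTAGAC, in 0.213%, the FOXH1 motif AATNCACA, in 3.60%, the TCF/LEF motif CTTTGAT, in 3.73%, and the bicoid-type homeodomain motif TAATCC, in 7.06%. Among the windows not shown, *Mesp1* and 1 of the 3 windows of *Foxa2* held the TCF/LEF motif, *Mesp1*, *Evx1* and another *Foxa2* window held the short SMAD motif, and *Mesp1* and *Evx1* held the T-box motif. A match is only a match of letters in these short windows.

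All 7 genes were low in every condition. *Eomes*, a T-box factor needed for mesoderm migration and definitive endoderm, had the highest mean in 3 of the 4 conditions, at 4.0 ± 0.722 FPKM (SD, n = 2) in WT and 5.74 ± 1.44 FPKM in *Pcgf5*-/- at day 0, and at 3.02 ± 1.98 FPKM in *Pcgf5*-/- at day 6. In WT at day 6, where *Eomes* averaged 0.798 ± 0.430 FPKM, the means of *Foxa2* (1.43 ± 1.51 FPKM) and *T* (1.14 ± 0.859 FPKM) were above it, each with a spread as wide as the gap. Even the highest of these levels, that of *Eomes* at day 0 in *Pcgf5*-/-, was above only 57.3% of the genes detected there. *Gsc* at day 0 ranked above about 40.2% of the detected genes in WT. *Mesp1*, an early marker of cardiac mesoderm, was at or near 0 throughout.

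**Figure D1:**
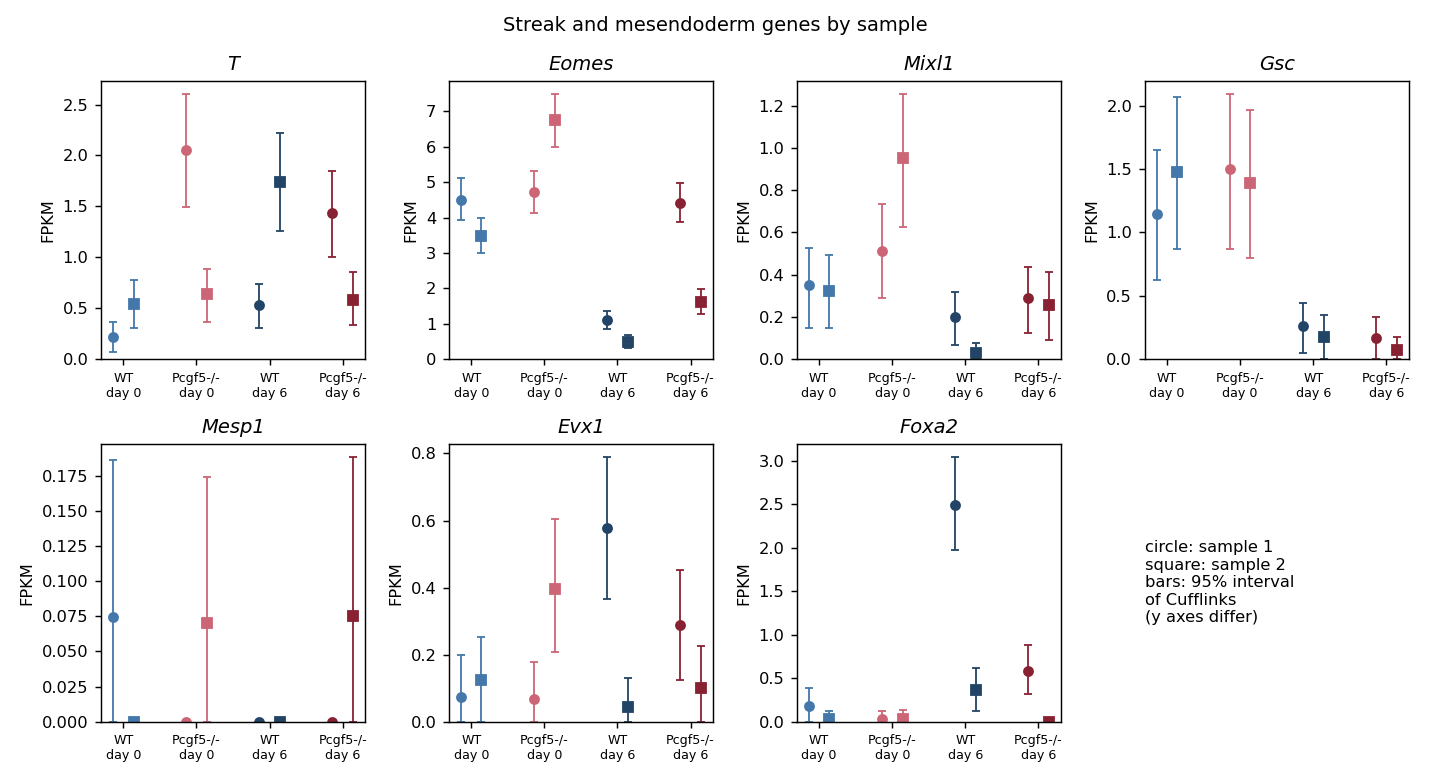
FPKM of each of the 7 genes (y axes, which differ between panels) in the 8 samples, by genotype and day (x axes). Circles are sample 1 and squares sample 2 of a condition, and bars are the 95% interval given by Cufflinks. *Eomes* at day 6 lies between 1.62 and 4.42 FPKM in *Pcgf5*-/- and between 0.494 and 1.10 FPKM in WT, *Gsc* is low in all 4 samples of day 6, and *Foxa2* stands out in 1 WT sample of day 6.

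The first comparison asked whether mESCs without PCGF5 already differed at day 0. None of the 7 streak genes passed the test there, and none of the 4 tested had an unadjusted p under 0.05. Of all tested genes, 0.333% were called in either direction, 44 genes, while 2294 had an unadjusted p under 0.05. The median log2 difference of all tested genes was 0.11, and scaling the samples by quantiles or by median of ratios took it to -0.00303 and -0.00622. With these scalings the 38 higher and 6 lower calls became 0 and 3, and 0 and 2.

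*T*, the T-box factor that marks the streak and later the notochord, had 0.215 FPKM (interval 0.0654 to 0.360) and 0.545 FPKM (0.304 to 0.774) in WT, and 2.05 FPKM (1.49 to 2.60) and 0.638 FPKM (0.366 to 0.884) in *Pcgf5*-/- at day 0. Only *Pcgf5*-/- sample 1 stood apart, and sample 2 lay just above the higher WT sample with an overlapping interval. The fitted log2 fold change was 0.71 (SE 0.39, adjusted p = 0.393), or 0.60 relative to the median gene. *Eomes* had 4.51 and 3.49 FPKM in WT and 4.72 and 6.76 FPKM in *Pcgf5*-/-, a log2 fold change of 0.42 (SE 0.35, adjusted p = 0.597).

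*Mixl1*, a paired-type homeobox factor of the streak, had 0.349 and 0.321 FPKM in WT and 0.510 and 0.95 FPKM in *Pcgf5*-/- at day 0, below the minimum for a test. As with *Eomes*, the highest value was in *Pcgf5*-/- sample 2, the sample with the highest sum of feeder markers, in which 12 of the 14 feeder genes were at their highest of all samples. The part of these cells in the values was not tested. Samples of the genotypes did not overlap for *T*, *Eomes* and *Mixl1*, all higher in *Pcgf5*-/-, or 3 of 7, and among all genes above 0 in any sample 40.0% did not overlap in either direction.

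*Gsc*, the homeobox gene of the organizer and anterior streak, had 1.14 and 1.48 FPKM in WT and 1.5 and 1.39 FPKM in *Pcgf5*-/- at day 0. The genotypes overlapped, and the log2 difference of 0.09 (SE 0.17, adjusted p = 0.853) turned to -0.068 with quantile scaling and to -0.0070 with median-of-ratios scaling. *Foxa2*, a forkhead factor of node, floor plate and endoderm, was at 0.177 and 0.0299 FPKM in WT and at 0.0316 and 0.0331 FPKM in *Pcgf5*-/-. All 4 intervals reached 0, so no difference was detectable at this depth. *Evx1* had 0.0744 and 0.126 FPKM in WT and 0.0665 and 0.394 FPKM in *Pcgf5*-/- at day 0. For *Mesp1* the values were 0.0744 and 0 FPKM in WT and 0 and 0.0701 FPKM in *Pcgf5*-/-, with every interval reaching 0.

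At day 6 the comparison asked whether the streak genes were higher without PCGF5. None of the 7 was called, with 1 of the 4 tested genes, *Eomes*, at an unadjusted p under 0.05. Of all tested genes 9.57% were called higher and 7.05% lower in *Pcgf5*-/-, and 4315 had an unadjusted p under 0.05. The 3 genes whose samples did not overlap were *Eomes* and *Mixl1*, higher in *Pcgf5*-/-, and *Gsc*, lower, against a share of 53.1% of all genes above 0.

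*Eomes* had 1.10 FPKM (interval 0.838 to 1.37) and 0.494 FPKM (0.313 to 0.675) in WT, and 4.42 FPKM (3.87 to 4.97) and 1.62 FPKM (1.26 to 1.99) in *Pcgf5*-/- at day 6. Both *Pcgf5*-/- samples were above both WT samples, and sample 1 was the higher in each genotype. The ratio of the means was 3.79, and the log2 fold change on the FPKM + 1 scale was 1.09 (SE 0.35, adjusted p = 0.0711 by limma). Over the alternatives that kept all samples the adjusted p ran from 0.0554 to 0.149, and with single samples of day 6 left out it turned on which one. The log2 fold change was 0.57 (adjusted p = 0.320) without *Pcgf5*-/- sample 1, 1.61 (adjusted p = 0.0371) without *Pcgf5*-/- sample 2, 1.34 (adjusted p = 0.104) without WT sample 1 and 0.84 (adjusted p = 0.305) without WT sample 2.

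*Mixl1* had 0.197 FPKM (interval 0.0682 to 0.318) and 0.0276 FPKM (0 to 0.0764) in WT and 0.290 FPKM (0.122 to 0.437) and 0.256 FPKM (0.0886 to 0.413) in *Pcgf5*-/-. The values of the genotypes did not overlap, but the intervals of WT sample 1 and both *Pcgf5*-/- samples did, and with no minimum the adjusted p was 0.409. *Gsc* had 0.260 and 0.175 FPKM in WT and 0.168 and 0.0678 FPKM in *Pcgf5*-/-, a log2 difference of -0.12 (SE 0.17, adjusted p = 0.660). Its intervals overlapped in all 4 samples, and no difference was detectable at this depth.

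*T* had 0.528 FPKM (interval 0.305 to 0.738) and 1.74 FPKM (1.25 to 2.22) in WT and 1.43 FPKM (1.01 to 1.85) and 0.579 FPKM (0.330 to 0.859) in *Pcgf5*-/- at day 6. Each genotype had 1 high and 1 low sample, and the genotypes overlapped fully. The log2 difference was -0.06 (SE 0.39, adjusted p = 0.932), and its sign turned when *Pcgf5*-/- sample 2 or WT sample 2 was left out. *Evx1*, a homeobox gene of the posterior streak, had 0.578 and 0.0431 FPKM in WT and 0.289 and 0.100 FPKM in *Pcgf5*-/-. In both genotypes sample 1 was the higher, and the genotypes overlapped.

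*Evx1* also marks V0 interneurons of the spinal cord. Of 6 genes listed for these, 4 were tested at day 6 and 1 was called lower, where 7.05% of all tested genes were. This was *Dbx1*, a homeobox gene of their progenitors, with 95.4 and 71.1 FPKM in WT and 13.1 and 24.9 FPKM in *Pcgf5*-/-. Its log2 difference was -2.12 (SE 0.29, adjusted p = 0.00564 by limma). *Pax2* and *Lhx5* had lower means in *Pcgf5*-/- and were not called. *Pax8* went the other way, uncalled, with 1.83 and 0.316 FPKM in WT and 2.16 and 2.46 FPKM in *Pcgf5*-/-. *Evx2*, the neighbour of *Evx1*, was at 0.0830 FPKM or less. *Evx1* lies on chromosome 6, where the tested genes had a median log2 difference between genotypes of 0.41 at day 0 and 0.37 at day 6, against 0.11 and 0.02 for all tested genes. Chromosome 11, which holds none of the 7 genes, had 0.48 and 0.38. *Mesp1* was listed at 0 in both WT samples and in *Pcgf5*-/- sample 1 and had 0.0751 FPKM in *Pcgf5*-/- sample 2, with an interval that reached 0.

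**Figure D2:**
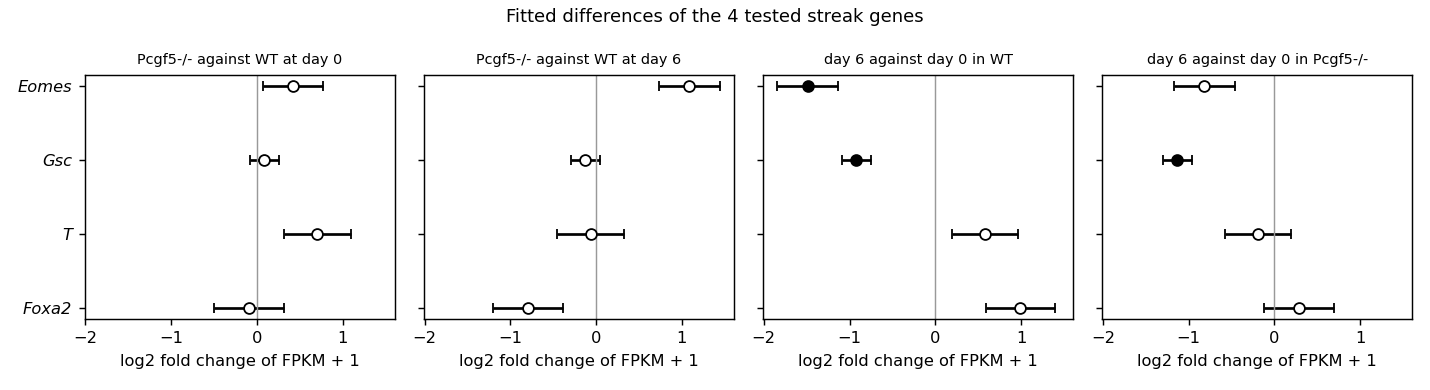
Fitted log2 fold changes of FPKM + 1 (x axes) of the 4 tested streak genes (rows) in the 4 comparisons, with standard errors as bars. Filled points passed an adjusted p of 0.05 and open points did not. *Eomes* and *Gsc* are filled for the days in WT, only *Gsc* for the days in *Pcgf5*-/-, and none for the genotypes, where *Eomes* at day 6 is at 1.09.

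*Foxa2* had 2.5 FPKM (interval 1.97 to 3.05) in WT sample 1 and 0.369 FPKM (0.123 to 0.615) in WT sample 2 of day 6, and 0.588 FPKM (0.321 to 0.882) and 0 FPKM in *Pcgf5*-/-. A single WT sample was high, and WT sample 2 lay between the *Pcgf5*-/- samples. The log2 difference was -0.80 (SE 0.41, adjusted p = 0.214). It was -1.47 with an adjusted p of 0.0370 without WT sample 2, and without WT sample 1 *Foxa2* did not reach the minimum for a test. WT sample 1 also had the highest day 6 value of all 18 primitive endoderm markers, *Foxa2* among them, and the highest of all 8 samples for 16 of them.

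The 3 tested genes whose levels followed *Foxa2* most closely over the 8 samples were *Ttr* (Pearson r = 0.990), which encodes transthyretin, *S100g* (r = 0.982), a calcium-binding protein gene, and *Habp2* (r = 0.977), a serine protease gene, and with 8 samples that share 1 high value these are descriptions only. *Ttr*, itself on the primitive endoderm list, had 5.62 FPKM in WT sample 1, 0.334 FPKM in WT sample 2 and 0.747 and 0.129 FPKM in *Pcgf5*-/- at day 6. Between genotypes at day 6, limma called 9.57% of all tested genes higher and 7.05% lower in *Pcgf5*-/-. Of the primitive endoderm list, 14 of 18 were tested and none was called. The 4 with the largest fitted differences were *Col4a2* (-1.92, adjusted p = 0.0963), *Col4a1* (-1.75, adjusted p = 0.180), *Lama1* (-1.44, adjusted p = 0.193), which encode basement membrane proteins, and *Ttr* (-1.08, adjusted p = 0.266). The part of such cells in the *Foxa2* values was not tested.

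**Figure D3:**
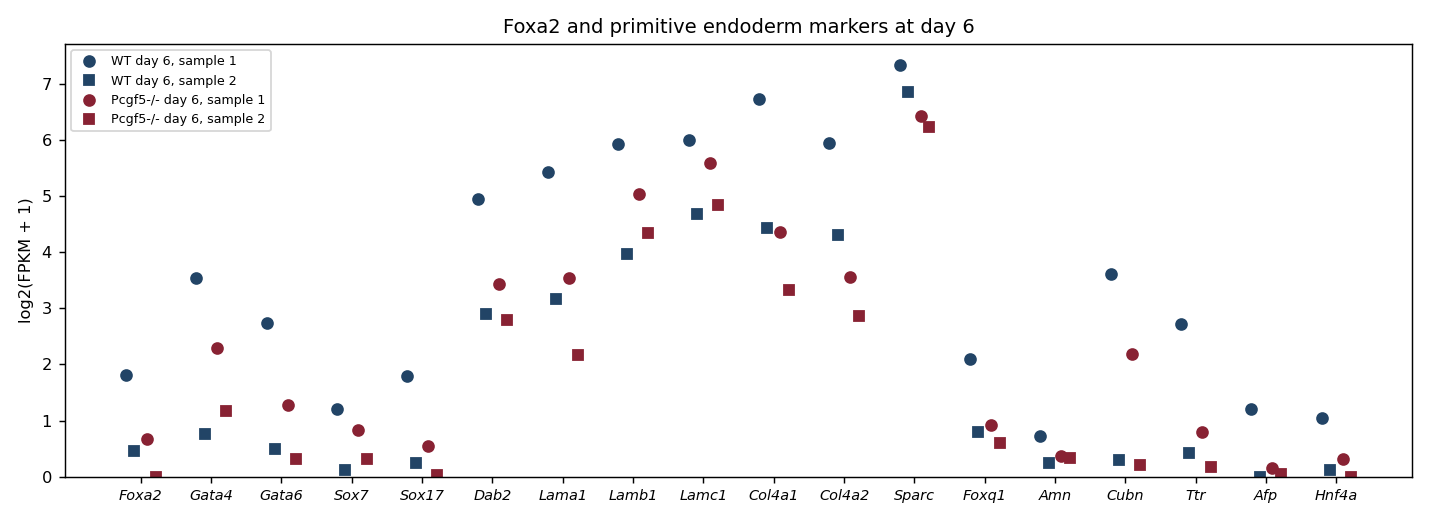
Level as log2(FPKM + 1) (y axis) of *Foxa2* and the other 17 genes of the primitive endoderm list (x axis) in the 4 samples of day 6. WT sample 1 (blue circles) is the highest sample for all 18 genes, with *Foxa2* at 2.5 FPKM there.

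*Foxa2* also marks the floor plate and node. *Shh*, which both structures secrete, was at most 0.631 FPKM in any sample, and *Noto*, a homeobox gene of the notochord, at most 0.0939 FPKM. Between genotypes at day 6, 9.57% of all tested genes were called higher and 7.05% lower in *Pcgf5*-/-. None of the 5 tested of 9 node and notochord genes was called. Their largest fitted difference was that of *Foxa2* itself, followed by *Sox9* (-0.55, adjusted p = 0.254), *Foxj1* (0.34, adjusted p = 0.262) and *Chrd* (0.19, adjusted p = 0.555). Of 12 floor plate genes 6 were tested and 1 fell, *Ntn1*, the axon guidance factor netrin 1, from 18.3 and 16.8 FPKM in WT to 5.75 and 4.70 FPKM in *Pcgf5*-/- (log2 difference -1.58, SE 0.17, adjusted p = 0.00377).

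The comparison of days asked how the streak genes moved over differentiation. In WT, *Gsc* and *Eomes* were called lower at day 6, 2 of the 7 genes, and none was called higher. The fit with no minimum called these 2 as well. Of all tested genes 16.2% were called lower and 34.2% higher. Values at day 6 lay wholly below those at day 0 for *Eomes*, *Mixl1* and *Gsc* and wholly above for *Foxa2*, or 4 of 7, where 66.4% of all genes above 0 did not overlap. The median log2 difference of all tested genes was 0.22, and with quantile scaling the calls became 3186 higher and 3037 lower in place of 4522 and 2146.

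*Gsc* fell from 1.14 and 1.48 FPKM at day 0 to 0.260 and 0.175 FPKM at day 6 in WT, a ratio of means of 6.02. As *Gsc* met the minimum only through day 0, where it was high, its fall is given from the fit with no minimum, a log2 fold change of -0.92 (SE 0.11, adjusted p = 0.00203). With the minimum the adjusted p was 0.00271, and relative to the median gene the change was -1.14. *Eomes* fell from 4.51 and 3.49 FPKM to 1.10 and 0.494 FPKM, a ratio of means of 5.01, with a log2 fold change of -1.49 (SE 0.35, adjusted p = 0.00875), or -1.70 relative to the median gene. Without WT sample 1 of day 0 its adjusted p was 0.0536, and without WT sample 2 of day 6 it was 0.0635.

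*Foxa2* had a log2 difference of 0.99 between the days in WT (SE 0.41, adjusted p = 0.0720, and 0.139 with no minimum), which rested on the single high sample. *T* had 0.58 (SE 0.39, adjusted p = 0.238), and its lower WT sample of day 6 lay within the day 0 values. *Mixl1* stood lower at day 6 by a ratio of means of 2.99 and was not tested.

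In *Pcgf5*-/-, *Gsc* alone of the 7 genes was called lower at day 6, where 10.4% of all tested genes were called lower and 21.9% higher. It fell from 1.5 and 1.39 FPKM to 0.168 and 0.0678 FPKM, a ratio of means of 12.3 (log2 fold change -1.13, SE 0.11, adjusted p = 0.00347 in the fit with no minimum, and 0.00243 with it). Relative to the median of all tested genes, which was 0.13, this was -1.26. Values of *Eomes*, *Mixl1* and *Gsc* did not overlap between the days, or 3 of 7, against 58.3% of all genes above 0. Quantile scaling turned 2898 higher and 1373 lower calls into 2019 and 1712.

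*Eomes* in *Pcgf5*-/- went from 4.72 and 6.76 FPKM at day 0 to 4.42 and 1.62 FPKM at day 6, so that sample 1 of day 6 was only just below the day 0 samples. The log2 difference was -0.82 (SE 0.35, adjusted p = 0.111). It was -1.09 with an adjusted p of 0.0452 under quantile scaling, and -1.34 with an adjusted p of 0.0294 without *Pcgf5*-/- sample 1 of day 6. It was -0.30 (adjusted p = 0.541) without *Pcgf5*-/- sample 2 of day 6, -1.04 (adjusted p = 0.142) without sample 1 of day 0 and -0.60 (adjusted p = 0.359) without sample 2 of day 0. *Mixl1* stood 2.67-fold lower at day 6 by the means, without a test. For *T* the log2 difference was -0.19 (SE 0.39, adjusted p = 0.736) and for *Foxa2* it was 0.29 (SE 0.41, adjusted p = 0.622).

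Whether the genotype difference itself changed between the days was tested as an interaction. None of the 7 genes was called, none of the 4 tested had an unadjusted p under 0.05, and 3.09% of all tested genes were called, 408 genes, with 3064 at an unadjusted p under 0.05. *Eomes* had an interaction of 0.67 on the log2 scale (SE 0.50, adjusted p = 0.459), so a fall of *Eomes* that differed between the genotypes was not shown. Quantile scaling turned 177 positive and 231 negative interactions into 309 and 219.

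The genes of the Nodal pathway, 19 in 3 lists, were set beside the streak genes at day 6. Of 16 tested, 6 were higher and 3 lower in *Pcgf5*-/- than in WT, where 9.57% of all tested genes were higher and 7.05% lower. Among ligands and co-factors, *Nodal* had 6.78 and 3.61 FPKM in WT and 21.0 and 16.1 FPKM in *Pcgf5*-/- (log2 fold change 1.70, SE 0.28, adjusted p = 0.00915). *Gdf3*, a related ligand on chromosome 6, rose by a log2 fold change of 2.60 (adjusted p = 0.00758), or 2.23 relative to the median of that chromosome, and *Tdgf1*, the co-receptor, by 2.44 (adjusted p = 0.0147). *Gdf1* (0.41, adjusted p = 0.371) and the proprotein convertase genes *Furin* (-0.31, adjusted p = 0.50) and *Pcsk6* (0.26, adjusted p = 0.404) were not called, and *Cfc1*, which encodes another co-receptor, was untested at 0.181 FPKM or less.

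Among antagonists, *Lefty1* and *Lefty2*, feedback inhibitors induced by Nodal signalling, were both higher. *Lefty1* had 31.1 and 13.8 FPKM in WT and 110 and 81.8 FPKM in *Pcgf5*-/- (log2 fold change 2.14, SE 0.55, adjusted p = 0.0349), and *Lefty2* 11.9 and 4.79 FPKM against 48.5 and 35.5 FPKM (2.30, SE 0.37, adjusted p = 0.00901). *Dand5* was at 0.07 (adjusted p = 0.883). *Cer1*, an antagonist expressed in anterior endoderm, was at 0.133 FPKM or less in every sample and was not tested.

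Among receptors and transducers, *Foxh1*, the DNA-binding partner of SMADs, had 12.9 and 9.29 FPKM in WT and 32.2 and 31.6 FPKM in *Pcgf5*-/- (log2 fold change 1.46, SE 0.20, adjusted p = 0.00582). *Smad3* (-0.92, adjusted p = 0.00936), *Smad4* (-0.50, adjusted p = 0.0478) and the receptor gene *Acvr2a* (-0.87, adjusted p = 0.0168) were lower. *Acvr2b* (-0.44, adjusted p = 0.255), *Smad2* (-0.24, adjusted p = 0.348) and *Acvr1b* (-0.03, adjusted p = 0.943) were not called, and *Acvr1c* was untested at 0.0158 FPKM or less. Of the 9 calls in the pathway, 1 was left without *Pcgf5*-/- sample 1 of day 6, that of *Foxh1*, and 5 without WT sample 2.

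**Figure D4:**
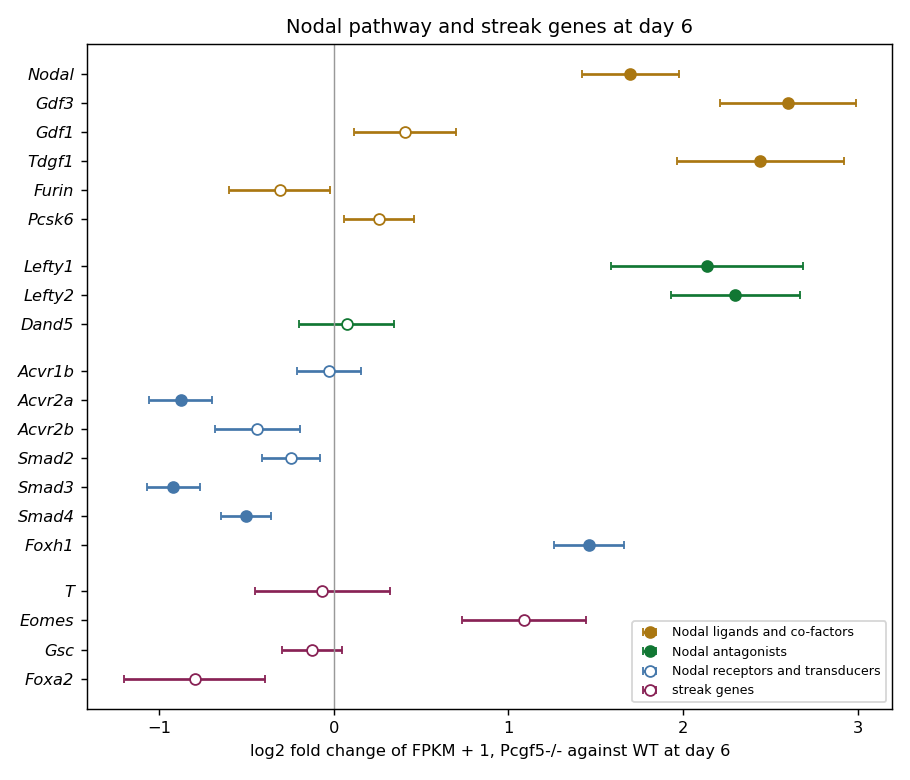
Fitted log2 fold change of FPKM + 1 (x axis) between *Pcgf5*-/- and WT at day 6 for the tested genes of 3 Nodal pathway lists and the 4 tested streak genes (rows), with standard errors as bars and filled points for an adjusted p under 0.05. *Nodal*, *Gdf3*, *Tdgf1*, *Lefty1*, *Lefty2* and *Foxh1* lie between 1.46 and 2.60, *Eomes* at 1.09, and *T*, *Gsc* and *Foxa2* below 0.

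Over the 8 samples, log2(FPKM + 1) of *Eomes* had a Pearson r of 0.923 with that of *Nodal*, and *Gsc* had 0.744 and *Mixl1* 0.731. *Foxa2* (-0.59), *T* (-0.20) and *Evx1* (-0.18) had negative values, and *Mesp1* had 0.354. These are descriptions over 8 samples from 4 conditions, and many genes change between the conditions. The mean FPKM of *Eomes* was 12.2% of that of *Nodal* in WT and 16.1% in *Pcgf5*-/- at day 0, and 15.4% and 16.3% at day 6. *Gsc* went from 3.98% and 4.06% of *Nodal* at day 0 to 4.19% in WT and 0.633% in *Pcgf5*-/- at day 6. At day 6 *Gsc* was near the floor, with intervals that reached 0 in both *Pcgf5*-/- samples. No genotype difference of *Gsc* itself was detectable there, while *Nodal* was higher in *Pcgf5*-/-.

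Among the streak genes themselves, *Eomes* and *Mixl1* had an r of 0.852, *Eomes* and *Gsc* 0.716, *Mixl1* and *Gsc* 0.688, and *Evx1* and *Foxa2* 0.714. *T* had a negative r with each of the other 6, from -0.62 with *Mesp1* to -0.08 with *Foxa2*. The genes most like *Eomes* over the samples were *Fcho1* (r = 0.991), *Pprc1* (0.987) and *Sik1* (0.984), which code for an endocytosis factor, a transcriptional coactivator and a kinase, and 307 genes had an r above 0.9. For *Gsc* they were *Osr2* (0.992), *Mtm1* (0.991) and *Cd84* (0.989), with 480 genes above 0.9. For *T* they were *Rwdd2b* (0.918), *Baiap2* (0.863) and *Chaf1b* (0.812), and only 1 gene was above 0.9.

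Other genes that feed or follow the streak were counted at day 6, where 9.57% of all tested genes were higher and 7.05% lower. Of 11 genes of Wnt, FGF and BMP signals, *Bmp4* being the only one of the last, 10 were tested, 4 were higher and 1 lower in *Pcgf5*-/-. The 4 with the largest fitted differences were *Fgf4* (2.02, adjusted p = 0.0267), a growth factor also expressed in mESCs, *Lef1* (1.48, adjusted p = 0.0232) and *Tcf7* (1.15, adjusted p = 0.00763), nuclear effectors of Wnt signalling, and *Nkd1* (-1.02, adjusted p = 0.0153), a Wnt feedback inhibitor. *Tcf7* lies on chromosome 11, and its difference was 0.77 relative to the median there. *Lef1* had 9.25 and 5.95 FPKM in WT and 32.5 and 15.4 FPKM in *Pcgf5*-/-.

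Of 19 genes of nascent and paraxial mesoderm, 11 stayed under 1 FPKM in every sample. Between genotypes at day 6, 9.57% of all tested genes were called higher and 7.05% lower in *Pcgf5*-/-. Of the 8 mesoderm genes tested, 1 was higher and none lower. This was *Tcf15*, a basic helix-loop-helix gene of paraxial mesoderm that is also expressed in the epiblast, with 6.19 and 1.31 FPKM in WT and 16.3 and 9.77 FPKM in *Pcgf5*-/- (log2 fold change 1.75, SE 0.48, adjusted p = 0.0420). *Meox1*, a somite homeobox gene, was at 0.537 and 0.401 FPKM in WT and 2.74 and 1.03 FPKM in *Pcgf5*-/- (0.91, SE 0.27, adjusted p = 0.0564), or 0.53 relative to the median of its chromosome, 11. *Meox1* met the minimum only through *Pcgf5*-/- at day 6, where it was high, so its value is no independent support for a rise. *Pdgfra* (-0.89, adjusted p = 0.328) and *Lhx1* (-0.58, adjusted p = 0.392) followed in size. The median log2 difference of the tested mesoderm genes was -0.18, beside 0.02 for all tested genes.

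Of 11 definitive endoderm genes, 7 were tested, 1 was higher and 1 lower, where 9.57% and 7.05% of all tested genes were. *Hhex*, a homeobox gene of anterior endoderm, had 3.75 and 2.99 FPKM in WT and 6.88 and 5.6 FPKM in *Pcgf5*-/- (0.73, SE 0.21, adjusted p = 0.0477), and at day 0 it had between 4.76 and 9.38 FPKM. *Cxcr4*, a chemokine receptor gene of definitive endoderm and of neural cells, had 17.9 and 31.2 FPKM in WT and 6.70 and 7.22 FPKM in *Pcgf5*-/- (-1.63, SE 0.29, adjusted p = 0.0115). *Gata6* (-0.82, adjusted p = 0.435) and *Sox17* (-0.73, adjusted p = 0.282), which primitive endoderm shares, were highest in WT sample 1.

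*Eomes* is also a gene of trophoblast and of cortical intermediate progenitors. Against the counts below, 9.57% of all tested genes were called higher and 7.05% lower in *Pcgf5*-/- at day 6. Of the trophoblast list, 8 of 12 genes were tested at day 6 and 1 was called, *Tfap2c* (1.59, SE 0.19, adjusted p = 0.00421), an AP-2 factor gene that mESCs also expressed, at 16.4 to 20.6 FPKM at day 0. *Krt8* (-1.63, adjusted p = 0.102), *Krt18* (-1.19, adjusted p = 0.0833) and *Krt7* (-1.10, adjusted p = 0.191) were the others with the largest differences. The remaining tested genes, *Eomes*, *Gata3*, *Gcm1* and *Tead4*, had higher means in *Pcgf5*-/- and were not called. The median log2 difference of the tested trophoblast genes was 0.48, beside 0.02 for all tested genes. *Elf5*, a defining gene of trophoblast stem cells, was at 0.0687 FPKM or less. Of 8 genes of cortical intermediate progenitors, 7 were tested and 1 was called lower, *Neurog2* (-0.85, adjusted p = 0.0488 by limma). *Neurog2* met the minimum only through WT at day 6, where it was high, so the call is no independent support for a fall. *Tbr1* stayed at 0.247 FPKM or less. Of the naive pluripotency genes, 11 of 12 were called higher in *Pcgf5*-/- at day 6, summing to 238 and 106 FPKM in WT and 724 and 679 FPKM in *Pcgf5*-/-. Their part in the *Eomes* value was not tested.

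**Figure D5:**
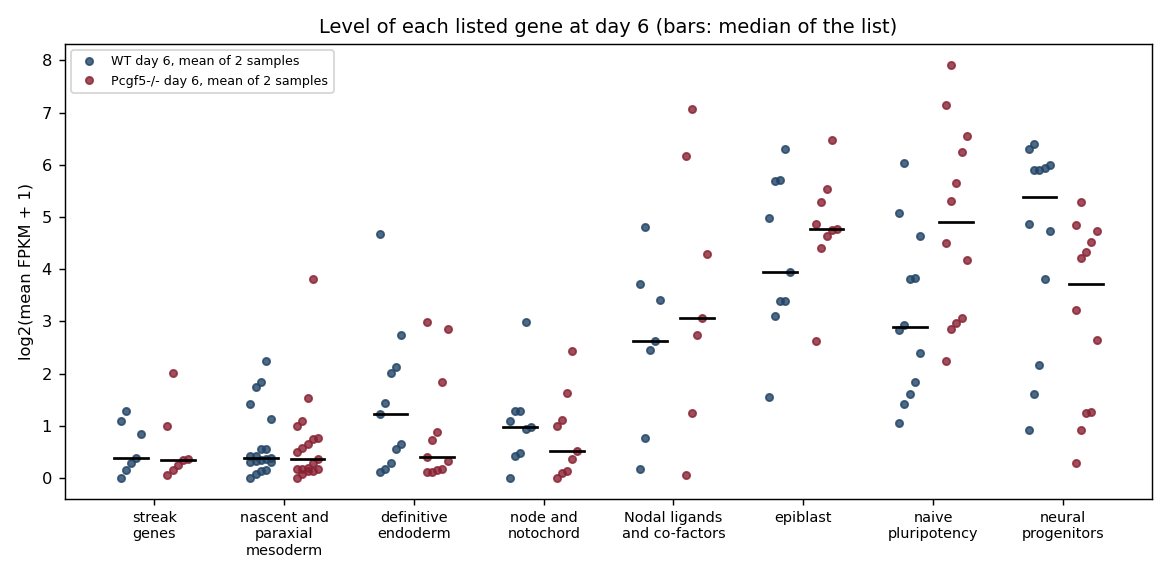
Level of each listed gene at day 6 as log2(mean FPKM + 1) (y axis) in WT (blue) and *Pcgf5*-/- (red), means of 2 samples, by gene list (x axis), with bars at the median of each list. The streak, mesoderm and node lists sit near the bottom in both genotypes, while naive pluripotency genes sit higher in *Pcgf5*-/- and neural progenitor genes higher in WT.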

How the data were processed

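The authors sequenced polyadenylated RNA, aligned the reads to mm9 and deposited a table of FPKM values per gene and sample with Cufflinks intervals. The submitters' processing notes name TopHat2 2.0.4 and Cufflinks 2.1.1. FPKM are scaled for depth and length, and no counts stand behind them here, so no count test was run. Groups and replicate numbers came from the labels.

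All 8 samples entered 1 limma fit (3.58.1, R 4.3.3) on log2(FPKM + 1), with a mean per condition, a variance trend, no block, and a minimum mean of 1 FPKM in at least 1 condition. Fold changes on this scale understate those of low genes. With 2 against 2 samples an exact permutation test of 1 gene could not pass the threshold. The script was also tested on simulated data with known changes. Relative depth came from genes whose interval ran from 0 to 4 times their value (within 0.01), as 1 fragment gives. Pearson correlations used log2(FPKM + 1).

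The members and gene lists were chosen with earlier results of these data known, and the TATA motif after the promoter windows had been read. Text names all members, *Pcgf5*, all Nodal pathway genes, up to 4 genes of each other list with the largest fitted difference, and the 3 tested genes, with a locus of at least 300 bp, most like each tested member. *Evx2*, *Shh*, *Noto*, *Elf5*, *Tbr1*, *Dbx1* and other list genes named for their place in a lineage were chosen after their values were seen. So were *Gata3*, *Gcm1*, *Tead4* and *Fgf5*. Alternatives changed the pseudocount, minimum, scaling, block, samples and trend, used the 1.5-fold rule, or left out each sample. Promoter windows are RefSeq (GRCm38.p6), gene positions GENCODE on NCBIM37. Tables and figures used Python 3.11.15, pandas 2.3.3, numpy 2.4.6 and matplotlib 3.10.9.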

Additional observations from a re-analysis of the deposited data

How the results depend on the processing

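Of 336 values of single genes under an alternative, 319 were counted as unchanged. For *T*, *Eomes*, *Gsc* and *Foxa2* this meant the same sign and the same side of the threshold. For *Mixl1*, *Mesp1* and *Evx1*, untested in the main fit, it meant a shift smaller than the spread between samples. Many alternatives changed only the minimum or the error model, or left out a sample of a condition not compared, so the sign could not turn. Signs turned for 9, all uncalled and each under 0.36 in size. For *Gsc* at day 0 these were -0.068 with quantile scaling and -0.0070 with median-of-ratios scaling. With single samples left out, the genotype difference at day 0 ran from -0.018 to 0.19 for *Gsc* and from -0.19 to 0.0035 for *Foxa2*, each turning without WT sample 1 of day 0. That of *T* at day 6 ran from -0.49 to 0.36, turning without sample 2 of either genotype. In *Pcgf5*-/- the difference of days ran from -0.64 to 0.26 for *T*, turning without sample 1 of day 0 or sample 2 of day 6, and from -0.046 to 0.62 for *Foxa2*, turning without sample 1 of day 6. The 1.5-fold rule, which has no test, counted 1 streak gene at day 0 (*T*), 2 at day 6 (*Eomes* and *Foxa2*), 4 between the days in WT and 2 in *Pcgf5*-/-, in place of 0, 0, 2 and 1. The share of all genes that this rule counts was not computed, so these counts have no background to be read against. Quantile scaling counted 2 streak genes between the days in *Pcgf5*-/-. Leaving out single samples gave 0 to 1 streak genes for the genotypes at day 6, 1 to 2 for the days in WT, 1 to 2 in *Pcgf5*-/-, and 1 to 8 Nodal pathway genes in place of 9. Removing a sample leaves fewer degrees of freedom and an arm of 1 sample assumed to vary like the others, and the cause of the other changes was not tested. Calls among all genes ranged with single samples left out from 1 to 22 at day 0 (44 with all), from 334 to 2089 at day 6 (2197), from 2429 to 4169 between the days in *Pcgf5*-/- (4271) and from 4 to 363 for the interaction (408). With all samples, day 0 gave 6 calls with no minimum, 1 with a minimum of 0.1 FPKM, 0 with only the compared groups and 2 without the trend, and the interaction 251 with a pseudocount of 0.1 and 86 with no minimum.

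In a fit that blocked on replicate numbers, the streak genes called were 0 for the genotypes at each day, 3 for the days in WT, where *Foxa2* joined *Gsc* and *Eomes* at a log2 fold change of 0.99 (adjusted p = 0.0375), having met the minimum only through WT at day 6, 1 for the days in *Pcgf5*-/- and 0 for the interaction. It changed no other call of a streak gene, kept the count of 9 Nodal pathway genes, and left 1 call among all genes at day 0. For the days in WT it called 4702 of the 13214 tested genes higher and 2233 lower. Differences between same-numbered samples had a correlation of 0.387 between the genotypes at day 6, 0.102 at day 0 and from -0.08 to -0.02 across the days. The numbers were not taken to pair the samples, because the labels give no shared source and not every correlation was above 0.1. The correlations under 0.1 were all across the days and do not bear on pairing of the genotypes within a day. For its fold changes the paper speaks of paired knockout and WT samples, without saying how they were paired. Whether same-numbered samples of day 6 share a batch was not tested.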

Other observations

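Genes of the formative and primed epiblast rose over the 6 days in *Pcgf5*-/-, with 9 of 9 called higher where 21.9% of all tested genes were, and 5 of 9 were called higher in WT, where 34.2% of all tested genes were. Among the 9, *Fgf5* met the minimum only through day 6, where it was high, so its call is no independent support for a rise. The 4 with the largest fitted differences in *Pcgf5*-/- were *Sall2* (log2 fold change 3.89, SE 0.22, adjusted p = 6.82e-05), *Lef1* (3.85, SE 0.33, adjusted p = 0.000249), *Sox3* (3.68, SE 0.21, adjusted p = 6.82e-05) and *Pou3f1* (2.83, SE 0.40, adjusted p = 0.00185). *Sall2* and *Sox3* are also expressed in neural progenitors and were lower in *Pcgf5*-/- than in WT at day 6 (-0.84, adjusted p = 0.0366, and -1.0, adjusted p = 0.0180). *Otx2*, a homeobox gene of epiblast and anterior neural tissue, was picked after its values were seen. It had 15.1 and 8.49 FPKM in WT and 5.71 and 2.17 FPKM in *Pcgf5*-/- at day 0, and 11.9 and 7.03 FPKM against 31.9 and 20.1 FPKM at day 6. Its genotype difference changed between the days by 2.8 (SE 0.60, adjusted p = 0.0495 by limma), just under the threshold. Of the 9 epiblast genes, 1 interaction was called positive and 1 negative, where 3.09% of all tested genes were called in either direction.

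Of 4 Nodal antagonists 3 were tested. Over the days in *Pcgf5*-/-, 1 was called higher and 1 lower, where 21.9% and 10.4% of all tested genes were. *Lefty1* rose from 5.75 and 9.07 FPKM to 110 and 81.8 FPKM (3.54, SE 0.55, adjusted p = 0.00268), while *Lefty2* fell from 129 and 183 FPKM to 48.5 and 35.5 FPKM (-1.87, SE 0.37, adjusted p = 0.00725). In WT 0 were called higher and 1 lower, against 34.2% and 16.2%. There *Lefty1* had 6.97 and 25.4 FPKM at day 0 and 31.1 and 13.8 FPKM at day 6. *Lefty2* went from 92.5 and 137 FPKM to 11.9 and 4.79 FPKM.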
